A study of Mus musculus with 4 samples.

Results

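The genes described here encode the SR proteins, the hnRNP proteins, the proteins of the small nuclear ribonucleoproteins (snRNPs) and the SF3a and SF3b proteins of mouse CD4+ T cells. They were chosen by symbol alone, as every gene whose name starts with Srsf and a digit, Hnrnp, Snrp, or Sf3a or Sf3b and a digit, and 52 of the 23238 symbols in the count tables met the rule. These 52 are 11 SR, 20 hnRNP, 12 snRNP and 9 SF3 genes, and they lie on 18 chromosomes with at most 6 on any of them. The libraries came from CD4+ T cells of C57BL/6j mice, 2 of genotype WT and 2 of genotype PDK4 KO. The comparison asks how gene expression differs without PDK4, a kinase that inhibits pyruvate dehydrogenase. In both genotypes the starting cells were naive, sorted by magnet from spleen and lymph nodes, and their stimulation through CD3 and CD28, with IL-2 added, lasted 48 hours. The labels do not give the part of Pdk4 that was removed or the age of the mice. They also do not say whether the loss was limited to a cell type or whether the replicates came from separate mice. Any p-value or interval here therefore rests on a spread that could be technical rather than biological.

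Pre-mRNA splicing is carried out by the spliceosome, which is built on each intron from snRNPs. A ring of Sm proteins holds each of the U1, U2, U4 and U5 RNAs, and particle-specific proteins join it, while SF3a and SF3b help the U2 snRNP to hold the branch site. SR proteins bind exons and mostly favour their inclusion, whereas hnRNP proteins coat nascent RNA and often favour skipping. In T cells, activation is known to change splicing, as for the phosphatase CD45, and to enlarge the RNA-processing machinery as cells grow.

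Total counts lay between 8837810 and 9739624 per library, and 50 of the 52 genes passed edgeR's filter on low counts. Levels are given in CPM, the count scaled to library size and TMM factor. The library kit reads the 3' end of each transcript once, so a level is not divided by transcript length and levels of different genes are compared on that per-transcript scale. The summed level of 8 T cell markers was 2133 and 2199 CPM in wild type and 2161 and 2207 in knockout (replicate 1 first, here and below), all 8 were detected, and 1, Cd5, rose. Of these, Cd4 was at 251 and 255 CPM in wild type and at 269 and 251 in knockout. Both knockout libraries were lower in 2 of the 8 markers and higher in 1, Cd5, against 21.9% and 21.5% of all tested genes. The 2 lower ones, neither of them called, were Cd3d and Cd3g. Cd3d was at 642 and 683 CPM in wild type and 584.5 and 602.1 in knockout. Cd3g was at 68.29 and 67.26 CPM in wild type and 49.55 and 62.29 in knockout. The summed level of 8 B cell markers differed between genotypes, at 72.5 and 71.7 CPM in wild type and 10.0 and 10.7 in knockout, with Pax5 at 0 counts in every library. Of the 7 tested B cell markers 6 fell in edgeR's quasi-likelihood test. The summed level of 8 CD8 T and NK cell markers was 305 and 296 CPM in wild type and 149 and 127 in knockout. Of 7 tested markers 1 fell, Gzma, at 219 and 219 CPM in wild type and 76.1 and 51.2 in knockout. Most of the difference in the sum came from Gzma. Cd8a and Prf1, both at low levels, were also lower in both knockout libraries, while Cd8b1, Klrd1, Klrk1 and Eomes overlapped between genotypes. The summed level of 8 myeloid markers was 26.6 and 23.1 CPM in wild type and 10.7 and 19.8 in knockout. Of 3 tested markers 1 fell, Fcer1g, at 21.3 and 19.5 CPM in wild type and 8.17 and 10.7 in knockout. The other tested markers, S100a8 and S100a9, had positive log2 fold changes (0.98 and 0.69) with overlapping libraries. The part of these other cell types in the splicing genes' values was not tested. Pdk4 had 1 and 0 counts in wild type and 0 and 2 in knockout, under the floor of 3 counts, which checks nothing about the labels.

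No gene of the 50 tested splicing genes passed the test for a difference between genotypes. The count of rises was 0 and that of falls was 0 at an adjusted p under 0.05 (edgeR's quasi-likelihood F test, adjusted by Benjamini-Hochberg over the 11464 tested genes). Over all tested genes 305, or 2.66%, were called, with 1.45% rising and 1.21% falling. DESeq2 and limma-voom also called 0. At an unadjusted p under 0.05 there were 6 genes, or 12% of the 50, against 13.5% of all tested genes. The median log2 fold change (knockout minus wild type) was 0.02 over the 50 genes and 0.0004 over all tested genes. The bulk libraries cannot tell a change in the number of cells of a type from a change in RNA per cell.

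The fit gave an interval for the difference of each gene between these libraries. It rests on the same spread between replicates as the p-values. If that spread is technical, the intervals do not bound a difference between mice. The 95% interval of the fold change, from the same fit and not adjusted for the number of genes, stayed within 1.25-fold in either direction for 33 of the 50 genes, within 1.5-fold for 47 and within 2-fold for 49. Across all tested genes these shares were 14.8%, 47.4% and 72.3%. Across the 5401 tested genes at or above the level of Hnrnpll, which takes in 49 of the 50 splicing genes, they were 31.5%, 86.7% and 99.1%. The genes whose interval passed 1.5-fold were Hnrnpul1, Snrpa and Sf3a2, which are among the lowest of the set.

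**Figure D1:**
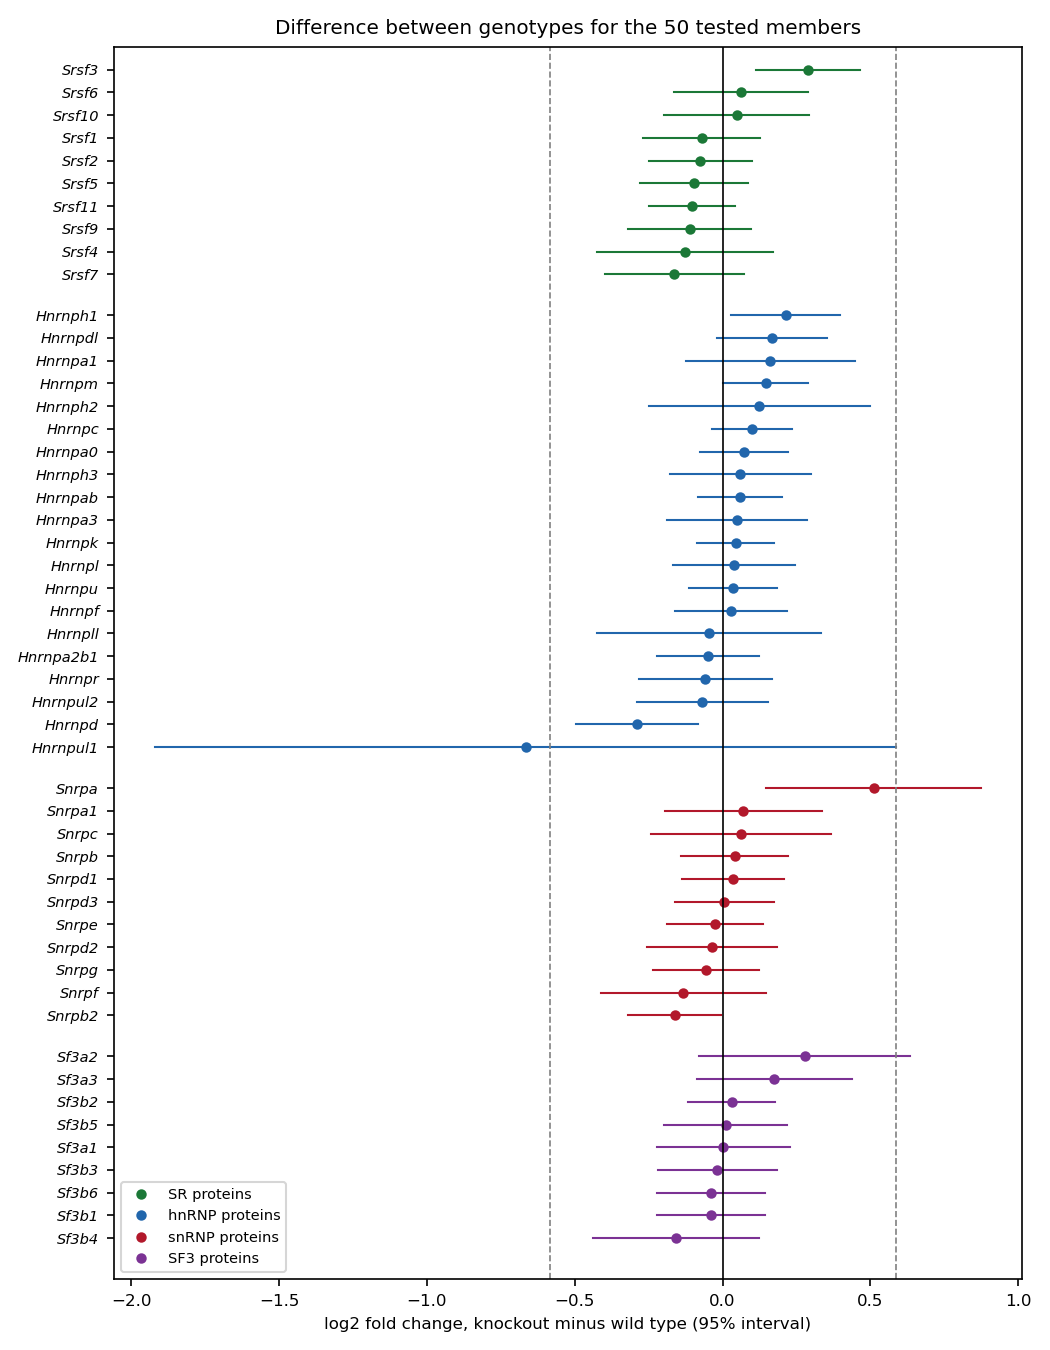
Log2 fold change of knockout minus wild type (horizontal axis) for each of the 50 tested genes (vertical axis, grouped by role), with the 95% interval of the fit as a bar and 1.5-fold marked by dashed lines. The 47 genes with intervals inside the dashed lines leave out Hnrnpul1, Snrpa and Sf3a2.

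The median difference between genotypes was no larger than that between replicates. On the scale of log2(CPM + 0.5), the median absolute difference over the 50 genes was 0.104 between the wild-type libraries, 0.0741 between the knockout libraries and 0.0655 between the genotype means. For the 5401 genes at or above the level of Hnrnpll these medians were 0.116, 0.114 and 0.118. A mean of 2 libraries varies less than 1 library, so the last of each trio is expected to be smaller when genotypes do not differ. The summed level of the 52 genes was 9529 and 9512 CPM in wild type and 9663 and 9625 in knockout. This is between 0.941% and 0.972% of all counts in a library.

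Most of the splicing genes were among the abundant transcripts of these cells. Of the 50 tested genes 49 lay above the median of all tested genes, 23.9 CPM, and 23 lay among the 10% highest, above 153 CPM. Hnrnpk was the highest at 789 CPM over the 4 libraries, followed by Hnrnpc at 680, Hnrnpm at 518, Srsf11 at 490 and Hnrnpab at 468. At the other end Hnrnpul1 was at 2.66 CPM. Srsf12 and Snrpn did not pass the filter and have no test. Srsf12 was at 1.14 and 0.422 CPM in wild type, with 1.02 and 0.109 CPM in knockout. Snrpn, which encodes the SmN variant of SmB found mainly in brain, had 2 and 7 counts in wild type and 0 and 0 in knockout.

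**Figure D2:**
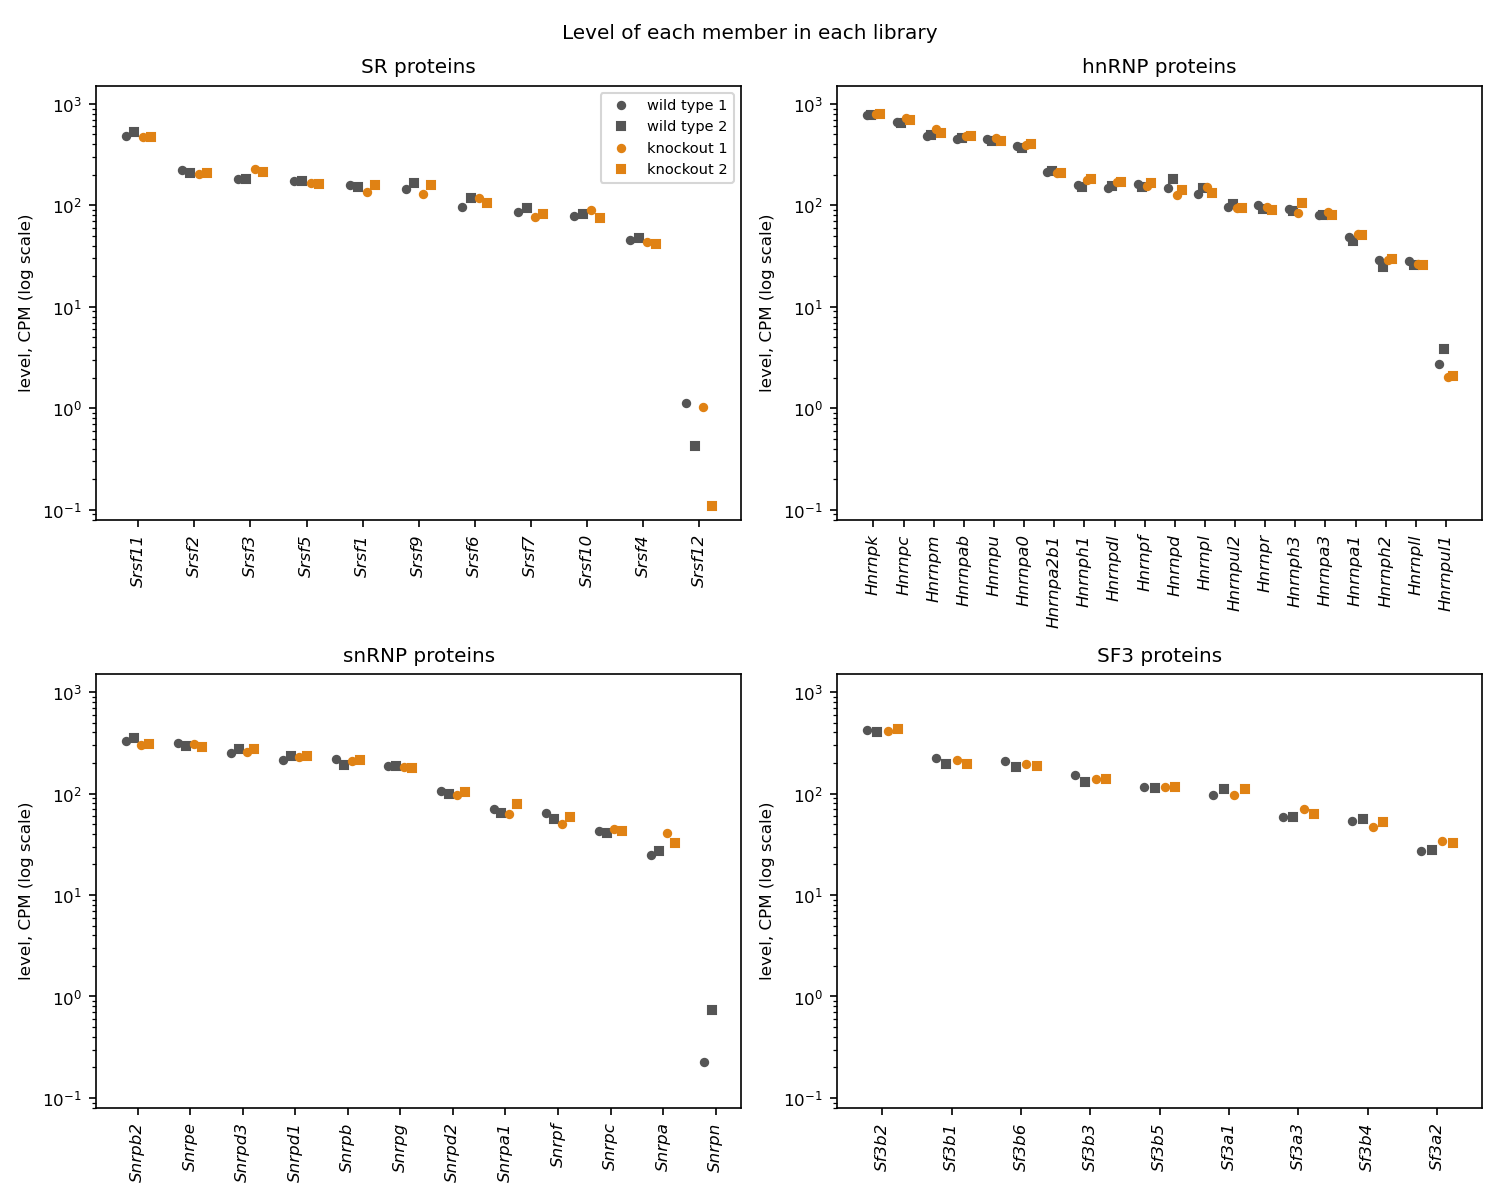
Level of each of the 52 genes in CPM (vertical axis, log scale) in the 2 wild-type (grey) and 2 knockout (orange) libraries, in 4 panels by role, with genes in order of mean level. Libraries nearly coincide for most genes between Hnrnpk at 789 CPM and Hnrnpll at 26.7 CPM, and the knockout libraries of Snrpn are at 0 and not drawn.

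SR proteins carry RNA-recognition motifs and a tail rich in serine and arginine. In this family 10 of 11 genes were tested, 0 rose and 0 fell, and 7 of the 10 had a negative log2 fold change, as did 49.9% of all tested genes, with a median of -0.09. Srsf11, an SR-related protein and the most abundant of the family, was at 487 and 527 CPM in wild type and 471 and 473 in knockout. Its knockout libraries were both lower than either wild-type library, and the log2 fold change was -0.10 (95% interval -0.25 to 0.04, adjusted p = 0.581 in edgeR's test). Srsf2, also called SC35, was at 226 and 210 CPM in wild type and 205 and 208 in knockout (-0.08, adjusted p = 0.778). Its groups did not overlap, although wild-type replicate 2 and knockout replicate 2 nearly met.

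Srsf3 (chromosome 17, 29032628 to 29043373, GRCm38, plus strand), the smallest SR protein, with roles in exon inclusion and mRNA export, had the smallest p of the 52 genes. It was at 181 and 182 CPM in wild type and 229 and 214 in knockout. Both knockout libraries lay above both wild-type libraries, which were nearly equal. The log2 fold change was 0.29 (SE 0.0867, 95% interval 0.11 to 0.47), 1.22-fold, with adjusted p = 0.0701 in edgeR's test, so the gene was not called. It passed with library size as the only scaling (adjusted p = 0.0476) and with a filter at a mean of 5 CPM (0.0483). Srsf7, a relative of Srsf3 that also takes part in mRNA export, was at 85.8 and 93.6 CPM in wild type and 77.2 and 83.0 in knockout (-0.16, 95% interval -0.40 to 0.07, adjusted p = 0.596). Both knockout libraries of Srsf7 were below both wild-type libraries. Srsf1, the founding SR protein, was at 158 and 153 CPM in wild type and 135 and 160 in knockout, so that its groups overlapped (adjusted p = 0.833). The other 5 tested SR genes (Srsf4, Srsf5, Srsf6, Srsf9 and Srsf10) had levels of 44.7 to 170 CPM and log2 fold changes of -0.13 to 0.06. The 10 tested genes held 5 with both knockout libraries lower and 1 with both higher, against 21.9% and 21.5% of all tested genes.

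hnRNP proteins are a mixed group of RNA-binding proteins, and all 20 of their genes were tested. Of these 0 rose and 0 fell, 14 had a positive log2 fold change, as did 50.1% of all tested genes, and the median was 0.05. Hnrnpk, which binds C-rich RNA through KH domains, was at 774 and 779 CPM in wild type and 800 and 801 in knockout (0.04, 95% interval -0.09 to 0.17, adjusted p = 0.841). The libraries of each genotype nearly coincided, and the gap between genotypes was small beside its interval. Hnrnpc, which binds U-rich stretches of nascent RNA, was at 670 and 644 CPM in wild type and 719 and 690 in knockout (0.10, adjusted p = 0.557). Hnrnpm, a regulator of alternative exons, was at 487 and 497 CPM in wild type and 567 and 522 in knockout (0.15, 95% interval 0.002 to 0.29, adjusted p = 0.359). In each of Hnrnpk, Hnrnpc and Hnrnpm both knockout libraries were above both wild-type libraries. This order held in 8 of the 20 genes, and the opposite order in 4, against 21.5% and 21.9% of all tested genes.

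Hnrnpd (chromosome 5, 99955935 to 99978938, minus strand), also known as AUF1, binds AU-rich elements and is known to affect the decay of cytokine mRNAs. It was at 150 and 180 CPM in wild type and 128 and 143 in knockout. Both knockout libraries were lower, and the wild-type libraries were farther apart from each other than knockout replicate 2 was from wild-type replicate 1. The log2 fold change was -0.29 (SE 0.101, 95% interval -0.49 to -0.08, adjusted p = 0.136 in edgeR's test). It was -0.42 without wild-type replicate 1, where the gene was called (adjusted p = 0.0198), and -0.15 without wild-type replicate 2. Hnrnph1, which binds runs of G, was at 159 and 153 CPM in wild type and 177 and 184 in knockout (0.21, 95% interval 0.03 to 0.40, adjusted p = 0.273). Its knockout libraries were both higher, and part of its 3' end occurs in another gene. Hnrnpdl, a paralog that lies near Hnrnpd on chromosome 5 (100033577 to 100039664, same strand), had a log2 fold change of the opposite sign. It was at 147 and 155 CPM in wild type and 171 and 168 in knockout (0.17, 95% interval -0.02 to 0.35, adjusted p = 0.445). The difference between these paralogs was not tested.

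Hnrnpll is the hnRNP known in T cells for the skipping of the variable exons of Cd45 (Ptprc). It was at 28.4 and 25.9 CPM in wild type and 26.7 and 25.9 in knockout, with overlapping groups (-0.05, 95% interval -0.43 to 0.33, adjusted p = 0.959). Its paralog Hnrnpl, which acts on the same exons, was at 129 and 149 CPM in wild type and 153 and 133 in knockout (adjusted p = 0.926). Ptprc itself was at 1239 and 1214 CPM in wild type and 1119 and 1075 in knockout (-0.16, 95% interval -0.28 to -0.04, adjusted p = 0.192). Reads from 3' ends do not cover the variable exons, so the form of Cd45 made in these cells was not seen. A further 10 hnRNP genes (Hnrnpab, Hnrnpu, Hnrnpa0, Hnrnpa2b1, Hnrnpf, Hnrnpul2, Hnrnpr, Hnrnph3, Hnrnpa3 and Hnrnph2) had levels of 28.0 to 468 CPM and log2 fold changes of -0.07 to 0.12.

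The snRNP genes showed 0 rises and 0 falls among 11 tested genes of 12, with a median log2 fold change of 0.006. The Sm proteins sit in 1 ring in equal numbers. The RNA levels of the 7 tested Sm genes spanned 5.29-fold, from Snrpf at 57.2 CPM to Snrpe at 303 CPM. Protein was not measured, and the values of both these genes are uncertain, as described below. Snrpe was at 318 and 293 CPM in wild type and 311 and 289 in knockout (adjusted p = 0.943). Snrpd3 was at 252 and 276 CPM in wild type and 256 and 274 in knockout (0.006, 95% interval -0.16 to 0.17, adjusted p = 0.99). In both genes the libraries of the genotypes interleaved. Snrpf was at 63.7 and 56.0 CPM in wild type and 50.1 and 59.1 in knockout (-0.13, adjusted p = 0.75), again with overlap. Over the 7 Sm genes the log2 fold changes lay between -0.13 and 0.04, and the libraries of the genotypes were apart in 1 of the 7, Snrpg, against 43.4% of all tested genes.

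The particle-specific genes held the largest positive difference of the set. Snrpa (chromosome 7, 27187005 to 27196271, minus strand), whose protein binds a loop of the U1 RNA, was at 24.5 and 27.2 CPM in wild type and 41.2 and 32.6 in knockout. Both knockout libraries were higher, with knockout replicate 1 the farthest out. The log2 fold change was 0.51 (SE 0.178, 95% interval 0.15 to 0.87), 1.43-fold, and was not called (adjusted p = 0.139 in edgeR's test). It was 0.33 without knockout replicate 1 and 0.67 without knockout replicate 2. Part of its 3' end occurs in other genes, as described below. The other U1 protein genes were nearer to 0 in log2 fold change, with Snrpc, whose protein helps U1 to recognise the 5' splice site, at 0.06 (adjusted p = 0.921) and Snrnp70, which the naming rule leaves out, at 0.18 (adjusted p = 0.299). Snrpb2, whose protein binds the U2 RNA and which was the most abundant snRNP gene, was at 329 and 353 CPM in wild type and 300 and 309 in knockout (-0.16, 95% interval -0.32 to -0.01, adjusted p = 0.345), with both knockout libraries lower. Its partner on the U2 RNA, Snrpa1, was at 69.0 CPM over the libraries against 323 for Snrpb2, and its groups overlapped (0.07, adjusted p = 0.89).

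Of the 9 SF3 genes 0 rose and 0 fell, and the median log2 fold change was 0.003. Sf3b2 was the most abundant, at 421 and 407 CPM in wild type and 415 and 430 in knockout (0.03, 95% interval -0.12 to 0.18, adjusted p = 0.918). Sf3b1, the large scaffold of SF3b that is often mutated in human myelodysplastic syndrome, was at 225 and 197 CPM in wild type and 215 and 195 in knockout (-0.04, 95% interval -0.22 to 0.14, adjusted p = 0.912). Sf3b6, the small protein that lies close to the branch site, was at 209 and 183 CPM in wild type and 194 and 188 in knockout (-0.04, adjusted p = 0.915). In these 3 genes the wild-type libraries enclosed or crossed those of the knockout.

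Some of the less abundant SF3 genes had larger differences with wider intervals. Sf3a2 was at 27.0 and 27.8 CPM in wild type and 33.8 and 32.6 in knockout (0.28, 95% interval -0.08 to 0.63, adjusted p = 0.524). Sf3a3, which joins Sf3a2 in the SF3a complex, was at 59.0 and 58.1 CPM in wild type and 69.7 and 62.4 in knockout (0.17, adjusted p = 0.617). Both knockout libraries were higher in these 2 genes. The third SF3a gene, Sf3a1, was at 97.2 and 110 CPM in wild type and 97.8 and 110 in knockout (0.003, adjusted p = 0.996), and its libraries overlapped. Sf3b4, which contacts the pre-mRNA near the branch site, was at 53.9 and 56.2 CPM in wild type and 46.8 and 51.9 in knockout (-0.16, adjusted p = 0.689), with both knockout libraries lower. Sf3b3 and Sf3b5 were at 140 and 116 CPM over the libraries, with log2 fold changes of -0.02 and 0.01.

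The knockout libraries lay wholly above those of wild type in 12 of the 50 genes and wholly below in 12, together 48% of the set, against 43.4% of all tested genes. By role, the split was 1 above and 5 below for SR genes, 8 and 4 for hnRNP genes, 1 and 2 for snRNP genes, and 2 and 1 for SF3 genes. The summed SR level was 0.36 and 0.377 of the summed hnRNP level in wild type, and 0.341 and 0.35 of it in knockout. This ratio was chosen after its values were seen and was given no test. Over 14 alternative settings the median log2 fold change lay between -0.10 and -0.06 for SR genes and between 0.03 and 0.07 for hnRNP genes. For snRNP and SF3 genes it took both signs. Each setting used the same libraries or left out 1 of them, so that a kept sign is no sign of stability.

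**Figure D3:**
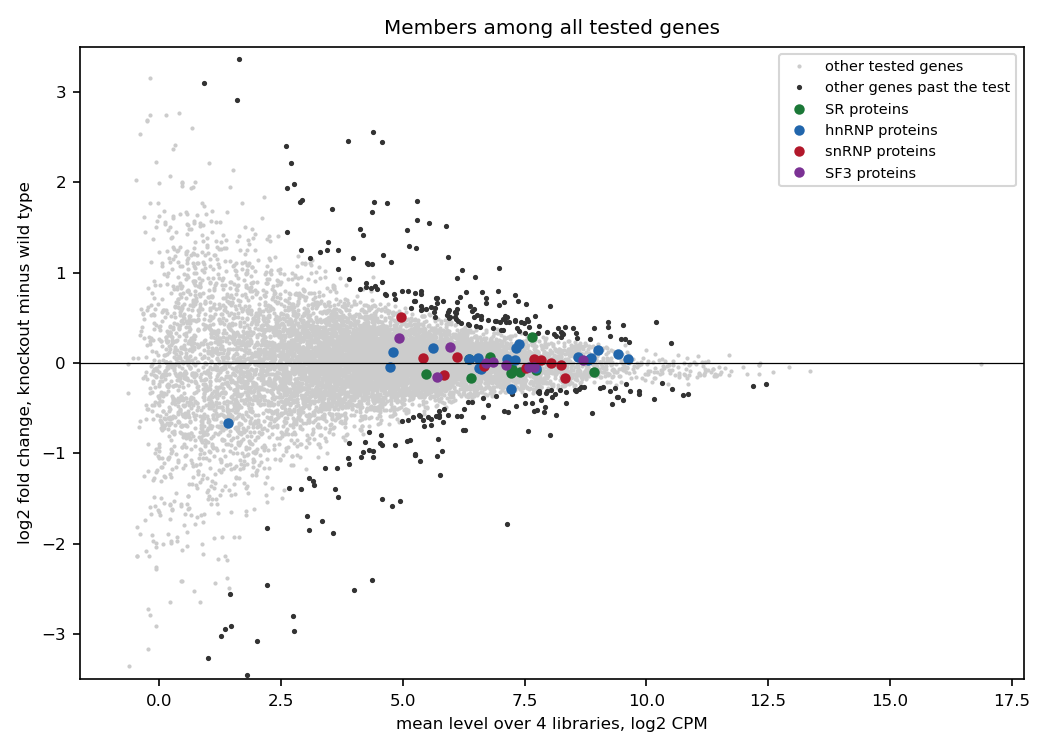
Log2 fold change of knockout minus wild type (vertical axis) against mean level in log2 CPM (horizontal axis) for the tested genes, with the 50 splicing genes in colour by role and other genes past the test in black. The splicing genes lie in the right part of the cloud within -0.29 to 0.51, except Hnrnpul1 at -0.67, and 14 other genes beyond 3.5 on the vertical axis are not drawn.

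**Figure D4:**
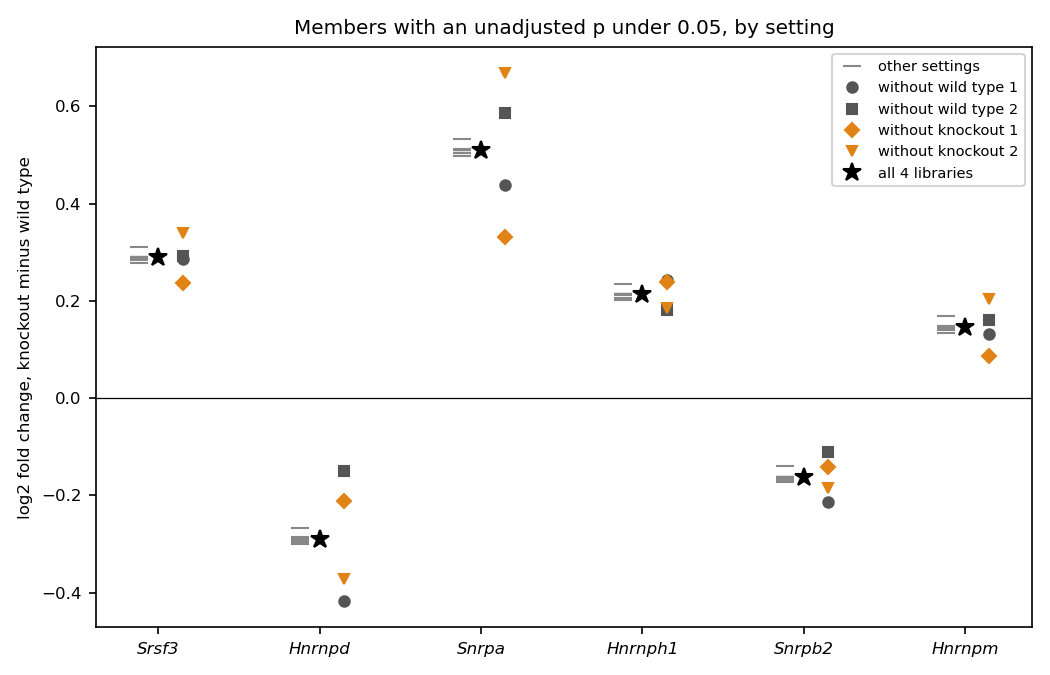
Log2 fold change of knockout minus wild type (vertical axis) of the 6 genes with an unadjusted p under 0.05 (horizontal axis), with all 4 libraries (star), with each library left out (symbols) and in the other settings (dashes). Snrpa runs from 0.33 to 0.67. The genotypes do not overlap in these 6 genes, which were chosen by p, so that a sign kept with a library left out is no sign of stability.

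Copies of a gene's 3' end elsewhere could affect where its reads were counted. For each gene, 50-base windows of the last 300 bases of its protein-coding GENCODE vM21 transcripts were searched in the transcripts of all other genes. For 44 of the 52 genes no window occurred in a gene at another place. The highest shares were 42.9% for Hnrnpa3, in 38 other genes, 40.9% for Hnrnph1, in 1 other gene (Setd1b), and 37.8% for Snrpa, in 6 other genes. Smaller shares were found for Snrpc (19.9%), Srsf10 (8.5%), Snrpe (6.43%), Hnrnph2 (4.22%) and Snrpd1 (3.59%). These are shares of windows and not of reads, so they do not measure how far a level could be off. The values of all these genes are uncertain for this reason. Exons of a gene on the opposite strand overlap the last 300 bases of Srsf2 (Mettl23), Srsf4 (Gm12992) and Snrpf (Ccdc38). The use of strand in counting is not given, so these 3 are uncertain as well. For Hnrnpab 36% of the windows also lie in an overlapping gene, which leaves its value uncertain too. Their part in the results was not tested.

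The promoters of the 3 genes with the smallest p are shown, since these are the genes for which a difference was nearest to being called. Each line gives 250 bases before to 50 after a start site from RefSeq on GRCm38.p6 (where several are listed, the one nearest to the GENCODE start), and capitals mark matches on either strand to the motifs listed after them.
Srsf3 (chr17:29032410-29032709, plus strand): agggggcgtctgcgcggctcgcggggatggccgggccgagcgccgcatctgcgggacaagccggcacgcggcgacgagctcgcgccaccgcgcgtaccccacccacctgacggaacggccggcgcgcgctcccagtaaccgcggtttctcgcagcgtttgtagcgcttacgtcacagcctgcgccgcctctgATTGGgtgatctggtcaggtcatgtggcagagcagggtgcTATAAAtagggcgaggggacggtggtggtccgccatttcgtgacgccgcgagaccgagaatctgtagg
Hnrnpd (chr5:99978889-99979188, minus strand): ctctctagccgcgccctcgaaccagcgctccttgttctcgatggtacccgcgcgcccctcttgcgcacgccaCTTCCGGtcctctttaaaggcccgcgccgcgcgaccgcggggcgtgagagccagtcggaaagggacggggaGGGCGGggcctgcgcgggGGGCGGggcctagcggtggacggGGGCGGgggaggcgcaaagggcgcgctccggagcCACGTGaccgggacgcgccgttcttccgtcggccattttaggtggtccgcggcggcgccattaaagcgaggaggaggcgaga
Snrpa (chr7:27196222-27196521, minus strand): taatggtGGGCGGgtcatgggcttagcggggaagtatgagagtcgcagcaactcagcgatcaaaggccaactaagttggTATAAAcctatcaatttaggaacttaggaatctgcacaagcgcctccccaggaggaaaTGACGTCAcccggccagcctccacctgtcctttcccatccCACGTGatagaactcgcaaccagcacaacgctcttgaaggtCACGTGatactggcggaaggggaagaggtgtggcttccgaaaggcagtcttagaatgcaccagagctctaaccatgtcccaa

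The motifs were CCGGAAG (the core bound by ETS factors), CCAAT (the CCAAT box), TATAAA (the TATA box), GGGCGG (the GC box bound by SP1), TGACGTCA (a cyclic AMP response element) and CACGTG (an E-box). Srsf3 holds a CCAAT box in reverse and a TATA box, Hnrnpd an ETS core in reverse, 3 GC boxes and an E-box, and Snrpa a GC box, a TATA match, a cyclic AMP element and 2 E-boxes. Among the 46 splicing genes with a promoter in the table, 34.8% had the ETS core at some listed start, against 21.6% of tested genes and 9.93% of all genes. In the same order, the GC box was found in 71.7%, 69.1% and 38.2%, and the CCAAT box in 50%, 43.1% and 41.1%. The TATA box was found in 15.2%, 8.34% and 15.7%, the E-box in 13%, 11.9% and 8.09%, and the cyclic AMP element in 4.35%, 3.75% and 2.03%. None of these motifs lies within another. At the first listed start the median number of CpG dinucleotides was 24.5 for the splicing genes, 21 for tested genes and 7 for all genes. A match is a description of the letters and not a site in use.

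Outside the naming rule, 140 other splicing genes were listed in 5 groups, and 138 were tested. Of these 1 rose and 0 fell (0.725% called, against 2.66% of all tested genes), and the median log2 fold change was 0.02. The gene that rose was Puf60 (chromosome 15, 76070182 to 76080924, minus strand), which works with U2AF at the 3' splice site. It was at 146 and 147 CPM in wild type and 197 and 176 in knockout. The wild-type libraries nearly coincided and both knockout libraries were higher. The log2 fold change was 0.35 (SE 0.0924, 95% interval 0.16 to 0.54, adjusted p = 0.0293 in edgeR's test). The call was lost without wild-type replicate 1 (adjusted p = 0.0828), wild-type replicate 2 (0.141) or knockout replicate 1 (0.416), and with upper quartile scaling (0.0529).

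The group of other spliceosome proteins, which holds Puf60, had 1 rise in 64 tested genes. The remaining groups showed 0 rises and 0 falls. They held 13 genes of the exon junction complex or linked to it, and 37 other regulators of splicing. They also held 9 genes for kinases and an importin acting on SR proteins, and 15 genes of snRNP assembly. At an unadjusted p under 0.05, 13 of the 138 genes in the 5 groups were higher and 2 lower (9.42% and 1.45%), against 6.8% and 6.68% of all tested genes. In the assembly group, which holds genes of the SMN complex and the PRMT5 methylosome, 4 genes were higher at that level and none was called. They were Gemin4 at 5.68 and 6.76 CPM in wild type and 13.6 and 11.4 in knockout (1.01, adjusted p = 0.0864), Gemin6 (0.66, adjusted p = 0.235), Strap (0.25, 0.252) and Wdr77 (0.36, 0.279), chosen after their values were seen. Smn1 was at 144 and 123 CPM in wild type and 130 and 133 in knockout (-0.02, adjusted p = 0.967). In the same libraries 6 of 7 tested B cell markers fell, as given above.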

How the data were processed

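RNA was measured in 4 libraries (Lexogen QuantSeq, 500 ng of total RNA each, per the labels' protocols). The authors deposited raw counts per gene symbol, made with Bowtie2, edgeR and the mm10 build per the submitters' processing notes. How reads were counted (annotation, strand, several matches) is not given in the sources used here. For 35 symbols on several rows the counts were added, and 0 of the 52 genes is among them. The 23238 symbols held 11464 that passed filterByExpr. The genotype test was that of edgeR 4.0.16, R 4.3.3 (two-sided quasi-likelihood F test, TMM, genotype only, Benjamini-Hochberg over all tested genes, threshold 0.05). The SE is the log2 fold change divided by the square root of F, and intervals are at 95% from the test's t quantile. A floor of 3 counts was 0.308 to 0.339 CPM and covers counting error only. In simulated data with known changes, the test recovered 32.8% of 1.5-fold, 67.2% of 2-fold and 84.8% of 4-fold changes. Of its 132 calls 9 were false. The changed genes were drawn from all tested genes, whatever their level. DESeq2 1.42.0, limma 3.58.1 and other settings were tried as alternatives. Positions, transcripts and promoters came from GENCODE vM21 and RefSeq on GRCm38, matched by symbol (promoters for 46 of 52).

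The genes and lists were chosen with earlier results of these data known. Values per library were given for each gene past the test, the 3 most abundant and the 3 with the smallest p in each role, and Hnrnpll. Other genes given with values were chosen after their values were seen.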

Additional observations from a re-analysis of the deposited data

How the results depend on the processing

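Leaving out each library in turn gave between 170 (without knockout replicate 1) and 293 called genes over the whole table, against 305 with all 4, and 184 without wild-type replicate 2. Among the 50 splicing genes this gave 0 rises each time and 0 to 1 fall, the fall being Hnrnpd without wild-type replicate 1. With library size only, and with the stricter filter, 1 rose, Srsf3, and 0 fell. The other settings called 0. Among the other splicing genes, rises numbered 0 to 2 when a library was left out, 0 with upper quartile scaling and 1 in the remaining settings. Puf60 was the gene called in each of those remaining settings, and Celf1 and Snrnp70 were called without wild-type replicate 1. The median log2 fold change of the 50 genes lay between -0.005 (without wild-type replicate 2) and 0.04 (library size only). The causes were not tested.

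With the replicate number as a block, 260 genes were called, with 0 rises and 0 falls among the 50 genes and 1 rise among the other splicing genes. The labels do not say that the numbers pair the libraries, and deviations of same-numbered libraries correlated at 0.0111 over tested genes.

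Low counts limit what can be said of Hnrnpul1, Srsf12 and Snrpn. The labels leave 2 libraries per genotype.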

Other observations

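Members of close families differed widely in level. Hnrnpa1, an abundant hnRNP in many cell types, was at 49.3 CPM over the 4 libraries and ranked 43 of the 52 genes, against 213 CPM for its paralog Hnrnpa2b1 and 82.0 for Hnrnpa3. Its libraries were at 48.5 and 44.7 CPM in wild type and 52.6 and 51.5 in knockout (log2 fold change 0.16, adjusted p = 0.688 in edgeR's test). None of the 50-base windows at the end of its annotated transcripts occurred in another gene's annotated transcripts. That search took exact matches only and left out the rest of the genome and other transcript ends. It therefore cannot show where the reads of Hnrnpa1 were counted, and the cause of its level was not tested. Hnrnpul1 was at 2.73 and 3.80 CPM in wild type and 2.04 and 2.07 in knockout (-0.67, 95% interval -1.92 to 0.59, adjusted p = 0.71), against 96.8 CPM for its paralog Hnrnpul2.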
